A study of Mus musculus with 4 samples.

Results

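Hypoxia-inducible factor and the enzymes of glycolysis were followed in gamma delta intraepithelial lymphocytes sorted from the colon of C57b/6 mice raised conventionally. These are T cells that sit between the epithelial cells of the gut. The DSS group had 2 samples from mice that received 2% dextran sulfate sodium, which damages the lining of the colon, over 5 days and were then left to recover on plain water for 3 days. The untreated group had 2 samples from mice without treatment. Each sample gave total RNA that was amplified, labelled with biotin and hybridised to 1 array, so each group had 2 arrays. The labels do not say whether a sample was 1 animal or a pool, and p-values therefore cover only the spread among the deposited samples, some or all of which may be technical. The 10 genes were Hif1a, Hk1, Hk2, Hk3, Slc2a1, Pfkp, Aldoa, Pgk1, Pkm and Ldha, of 18193 genes with a probe set of their own. They were read on 25 probe sets whose annotation names a single gene, and all 10 were tested.

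Glycolysis breaks glucose down to pyruvate in the cytosol. Glucose enters through transporters such as Slc2a1 (GLUT1), hexokinases trap it as glucose 6-phosphate, phosphofructokinase commits it to the pathway, aldolase splits the sugar, phosphoglycerate kinase and pyruvate kinase make ATP, and lactate dehydrogenase turns pyruvate into lactate. Hif1a encodes the oxygen-regulated subunit of HIF-1, which pairs with Arnt and switches on glucose transport and glycolytic genes in low oxygen. Activated T cells and inflammatory macrophages are both known for high glycolysis, and the colonic epithelium is a tissue of low oxygen.

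HIF-1 binds DNA at sites built around the letters ACGTG or GCGTG, so the promoter windows of 5 of the genes are shown for reference beside their signals. Each window runs from 250 bases before to 50 bases after an annotated start site (RefSeq, GRCm38.p6) and reads 5′ to 3′ on the gene's strand. Capitals mark ACGTG or GCGTG on either strand, where CACGT and CACGC are the same letters read from the other strand. The windows lie at chr4:119108495-119108794 (+) for Slc2a1, chr6:82774405-82774704 (-) for Hk2, chr13:55021336-55021635 (-) for Hk3, chrX:106186850-106187149 (+) for Pgk1 and chr7:46845554-46845853 (+) for Ldha.
Slc2a1: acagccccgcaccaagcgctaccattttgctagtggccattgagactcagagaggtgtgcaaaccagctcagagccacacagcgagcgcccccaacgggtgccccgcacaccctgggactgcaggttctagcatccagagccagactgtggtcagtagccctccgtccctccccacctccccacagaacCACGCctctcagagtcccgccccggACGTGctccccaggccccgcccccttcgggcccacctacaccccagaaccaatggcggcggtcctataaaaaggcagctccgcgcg
Hk2: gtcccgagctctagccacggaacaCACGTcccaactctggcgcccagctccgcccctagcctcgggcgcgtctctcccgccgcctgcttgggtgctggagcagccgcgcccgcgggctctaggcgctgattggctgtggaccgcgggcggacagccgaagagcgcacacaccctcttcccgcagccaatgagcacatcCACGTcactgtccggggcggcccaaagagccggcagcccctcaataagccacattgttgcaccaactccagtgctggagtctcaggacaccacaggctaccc
Hk3: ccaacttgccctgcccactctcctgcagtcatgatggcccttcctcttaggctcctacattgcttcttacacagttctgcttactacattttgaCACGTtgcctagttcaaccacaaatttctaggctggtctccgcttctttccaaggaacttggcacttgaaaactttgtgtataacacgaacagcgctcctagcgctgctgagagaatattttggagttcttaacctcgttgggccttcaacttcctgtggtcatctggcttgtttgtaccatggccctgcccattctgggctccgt
Pgk1: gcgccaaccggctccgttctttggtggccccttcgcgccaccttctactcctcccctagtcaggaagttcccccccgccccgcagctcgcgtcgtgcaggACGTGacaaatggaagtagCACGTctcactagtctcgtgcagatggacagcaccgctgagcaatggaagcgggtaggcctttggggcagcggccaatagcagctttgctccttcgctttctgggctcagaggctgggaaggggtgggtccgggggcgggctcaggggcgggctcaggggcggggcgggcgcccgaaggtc
Ldha: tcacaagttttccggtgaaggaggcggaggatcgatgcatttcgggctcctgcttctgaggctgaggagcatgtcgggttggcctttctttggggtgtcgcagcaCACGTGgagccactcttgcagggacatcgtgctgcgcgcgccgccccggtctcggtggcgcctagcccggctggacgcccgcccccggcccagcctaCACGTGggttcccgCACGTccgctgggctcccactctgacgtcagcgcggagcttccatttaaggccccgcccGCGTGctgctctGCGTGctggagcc
Slc2a1, Hk2 and Pgk1 each held 2 matches, Hk3 held 1 and this Ldha window held 7, in a count where CACGTG (the E-box, which reads the same on both strands) gives 2 overlapping matches. Over all 15 windows listed for the 10 genes, 12 (80%) held a match, and each gene had a match in at least 1 window. Overlapping Aldoa windows share a single match, which is counted in each, and the GC content of the windows was not taken into account. Among all 32851 windows of this length, 43.8% held one of the motifs, 19.6% held ACGTG and 32.4% held GCGTG. The match of letters does not show that HIF-1 binds there.

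Signals are linear intensities, and differences are DSS minus untreated of log2(signal + 32), a scale that makes changes of dim genes look smaller. A probe set was kept when its signal was above the array's median on 2 or more arrays, and a gene was represented by its brightest kept probe set, which gave 12424 genes. Array medians were 157.1 and 163.3 in DSS samples and 193.8 and 213.9 in untreated samples. The replicate arrays differed from each other by a median of 0.36 log2 in DSS samples and 0.68 in untreated samples. Hybridisation controls, transcripts added to every sample, averaged 7960 and 8313 on the DSS arrays and 51520 and 36300 on the untreated arrays, a difference that follows the groups, so array processing and treatment cannot be told apart. The Gapdh control probe sets, which read a glycolytic enzyme that was tested on no other probe set here, gave 14918 and 19510 at the 3′ end in DSS samples and 13172 and 30622 in untreated samples. Their 3′-to-5′ ratios were 8.92 and 7.80 in DSS samples and 9.09 and 9.52 in untreated samples. For the Actb control probe sets this ratio came to 16.0 and 10.6 in DSS samples and to 14.7 and 23.0 in untreated samples, highest on untreated replicate 2, and its part in the values of the 10 genes was not tested.

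Most of the 10 genes had higher signals in DSS samples on their brightest probe sets, led by Hk3, Hk2 and Hif1a. None of the differences passed the test. Of the 7 genes with several probe sets, 5 had log2 differences of both signs, Hk3 and Hif1a among them. On their brightest probe sets 7 genes (Hif1a, Hk2, Hk3, Slc2a1, Pfkp, Pkm and Ldha) had both DSS values above both untreated values, as did 17.2% of all genes. Pgk1 had both DSS values below both untreated values, as did 23.8% of all genes, and the groups overlapped for Hk1 and Aldoa. After quantile normalization 7 of the 10 were higher and 0 lower, against 19.0% and 19.3% of all genes, and after scaling to a common median 8 were higher and 0 lower, against 30.9% and 12.5% of all genes. The median log2 difference was 0.58 over the 10 genes and -0.07 over all 12424 genes. The median of all genes varied with signal, from -0.33 for genes with a mean signal of 222 to 292 to 0.16 for those of 1704 to 3502. In the brightest class, of 3504 and more, which held 5 of the 10 genes, it was 0.043, and 21.0% of genes were higher without overlap. Limma called 0 of the 10 genes and 0% of all genes at an adjusted p of 0.05. The smallest adjusted p of the 10 was 0.649, and 3 had an unadjusted p under 0.05, against 7.52% of all genes. Limma called 5 of the 10 (Hif1a, Hk2, Hk3 and Ldha higher, Aldoa lower) without untreated replicate 1, when it called 14.4% of all genes, and 1 (Hk3) without untreated replicate 2, when it called 6.08%. It called 0 without either DSS array. Leaving out an untreated array leaves 1 array to stand for that group, whose spread is then taken from the DSS arrays.

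**Figure D1:**
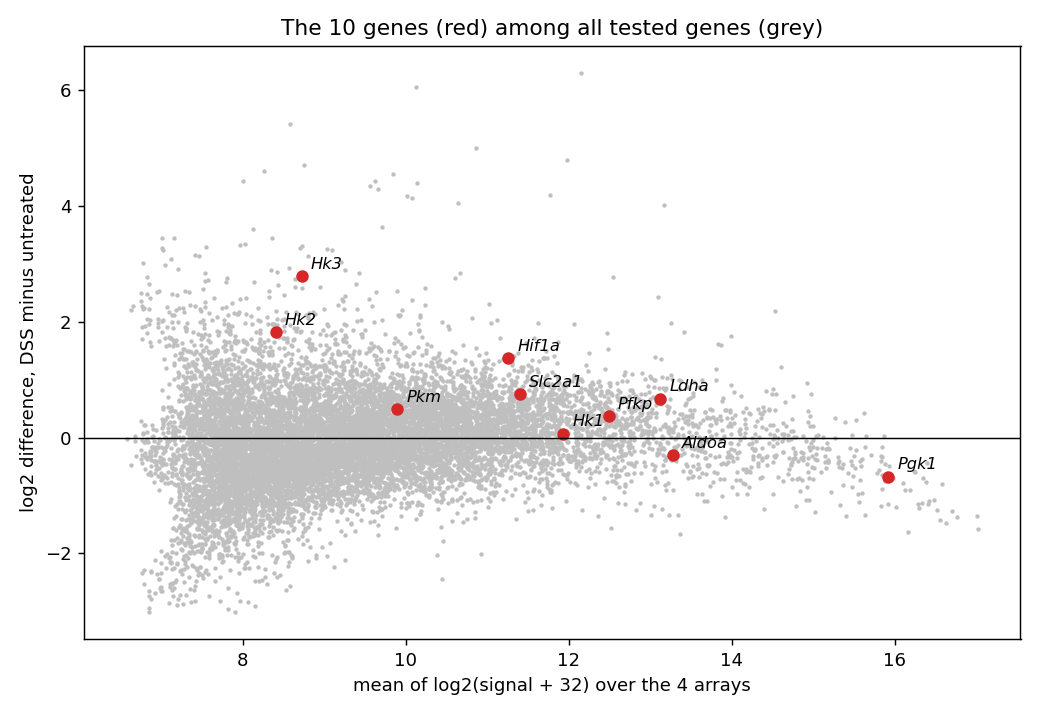
Log2 difference, DSS minus untreated, against the mean of log2(signal + 32) over the 4 arrays for the 12424 tested genes (grey) and the 10 genes (red). Hk3 and Hk2 lie highest of the 10 at low mean signal, and Pgk1, the brightest, lies below 0.

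Hif1a (chromosome 12, 73901324 to 73947554, GRCm38.p6) had signals of 3722 and 4107 in DSS samples and 2386 and 928 in untreated samples on its brightest probe set. Both DSS arrays lay above both untreated arrays, and the untreated arrays lay farther from each other than the DSS arrays did. The log2 difference was 1.37 ± 0.51 (SE, n = 2 per group; limma adjusted p = 0.649). A further, dimmer probe set, 1416035_at, read 1107 and 1576 in DSS samples and 1137 and 1270 in untreated samples. Its groups overlapped, and its log2 difference was 0.13 ± 0.37 in the limma fit over all 45101 probe sets (adjusted p = 0.94). The remaining Hif1a probe sets were dim. 1448183_a_at read 161 and 192 in DSS samples and 30.1 and 132 in untreated samples, and 1431981_at stayed under the array median on every array and read 13.0 and 12.5 in DSS samples and 24.5 and 20.8 in untreated samples. Hif1a was therefore higher in DSS samples on some of its probe sets and not on others, and its size on the brightest depended on the untreated array: the difference was 0.71 without untreated replicate 2 and 2.04 without untreated replicate 1.

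Slc2a1 (chromosome 4, 119108745 to 119137330), the transporter GLUT1, was the gene with several probe sets whose readings all lay higher in DSS samples. The brightest probe set gave 3960 and 3020 in DSS samples and 1686 and 2493 in untreated samples, a log2 difference of 0.74 ± 0.41 (limma adjusted p = 0.674). On 1426599_a_at the signals were 943 and 864 in DSS samples and 520 and 319 in untreated samples. On 1426600_at they were 230 and 195 in DSS samples and 117 and 69.8 in untreated samples. The groups did not overlap on any of the 3 probe sets, whose log2 differences ran from 0.74 to 1.09. The smallest of their adjusted p-values in the fit over probe sets was 0.764. Its neuronal and leukocyte relative Slc2a3 (GLUT3) read 10042 and 5176 in DSS samples and 7032 and 6634 in untreated samples, with overlapping groups.

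The hexokinases, which carry out the first step, differed among themselves. Hk1 (chromosome 10, 62268855 to 62379920), the widely expressed form, read 3558 and 4434 in DSS samples and 3435 and 4175 in untreated samples. These groups overlapped almost fully, with a log2 difference of 0.07 ± 0.38 (limma adjusted p = 0.965), and its dim second probe set gave -0.03. Hk2 (chromosome 6, 82725025 to 82774454), the inducible form that growth signals and HIF-1 raise, read 506 and 721 in DSS samples and 197 and 110 in untreated samples on its only probe set. Each DSS value was more than 2-fold above each untreated value, a separation that 2.41% of all genes and, among the 10, Hk2 and Hk3 showed. The log2 difference was 1.82 ± 0.51 (limma adjusted p = 0.649). The Hk2 signal of untreated replicate 2 was under that array's median of 213.9, and that of untreated replicate 1 was just above its median of 193.8.

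Hk3 (chromosome 13, 55005985 to 55021475), the hexokinase found mainly in myeloid cells, had the highest log2 difference of the 10 genes with all 4 arrays, and its probe sets disagreed. On 1442798_x_at it read 1036 and 1135 in DSS samples and 41.4 and 322 in untreated samples, a log2 difference of 2.79 ± 0.74 (limma adjusted p = 0.649). That value was 1.66 without untreated replicate 1, under the 2.16 of Hk2 and the 2.04 of Hif1a in the same setting, and 3.93 without untreated replicate 2. The ending _x_at marks probe sets that can also bind other transcripts. On 1435490_at, which lacks that ending, it read 244 and 239 in DSS samples and 200 and 571 in untreated samples. There the groups overlapped and the log2 difference was -0.45 ± 0.66, so the direction for Hk3 depends on the probe set.

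**Figure D2:**
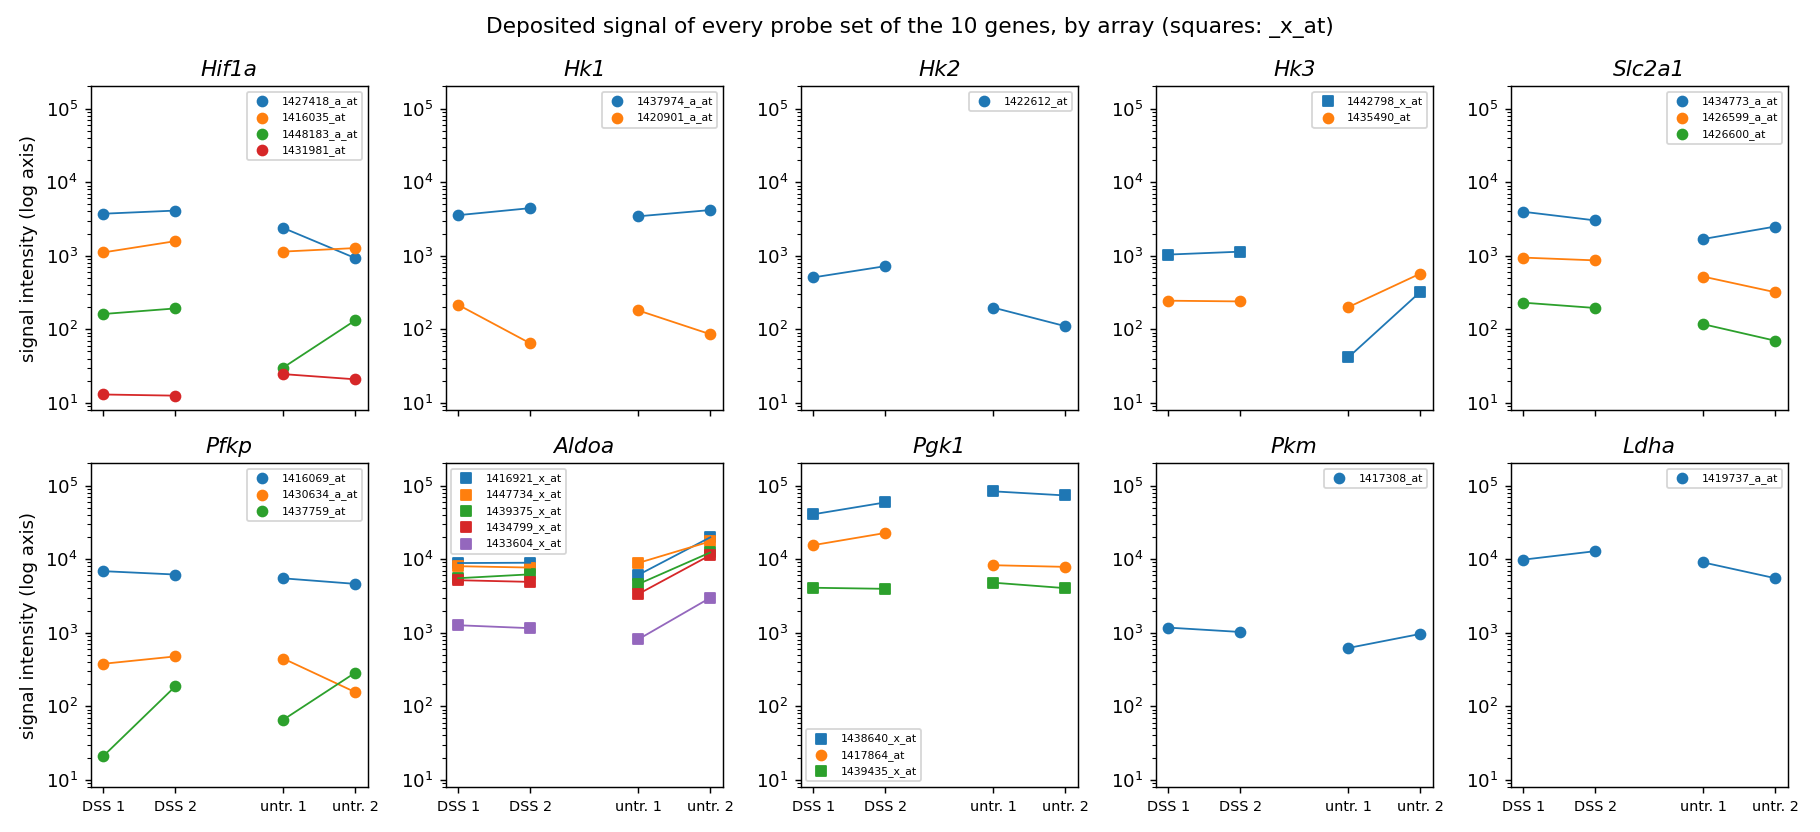
Signal (log axis) of all 25 probe sets of the 10 genes on the DSS arrays (left) and the untreated arrays (right), with a line joining the arrays of a group, circles for probe sets with other endings and squares for those ending in _x_at. Slc2a1 is higher in DSS samples on all 3 of its probe sets, while Hk3 and Pgk1 each have probe sets that disagree.

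Pfkp (chromosome 13, 6579874 to 6649060), the platelet-type phosphofructokinase, read 6864 and 6176 in DSS samples and 5481 and 4608 in untreated samples. The groups were separate but close, with a log2 difference of 0.37 ± 0.37 (limma adjusted p = 0.778). Its other probe sets overlapped between groups and gave 0.61 and -0.71. Aldoa (chromosome 7, 126795234 to 126800994), the main aldolase outside liver and brain, read 8846 and 8935 in DSS samples and 6095 and 19794 in untreated samples. The DSS arrays nearly coincided and fell between the untreated arrays. All 5 Aldoa probe sets end in _x_at, and their log2 differences ran from -0.66 to -0.29. Without untreated replicate 2, the array with the higher Aldoa signal, the difference was 0.54, and without untreated replicate 1 it was -1.15, so its sign rests on which untreated array is kept.

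Pgk1 (chromosome X, 106187100 to 106203699), phosphoglycerate kinase, which makes the first ATP of the pathway's payoff phase, had probe sets that went opposite ways. The brightest, 1438640_x_at, read 40696 and 59061 in DSS samples and 83557 and 73460 in untreated samples, a log2 difference of -0.68 ± 0.37 (limma adjusted p = 0.671). The probe set without a cross-binding mark, 1417864_at, read 15489 and 22672 in DSS samples and 8264 and 7848 in untreated samples. Here both DSS arrays lay far above both untreated arrays, and the log2 difference was 1.22 ± 0.41 (adjusted p = 0.764 in the limma fit over probe sets). The other _x_at probe set, 1439435_x_at, read 4082 and 3946 in DSS samples and 4785 and 4031 in untreated samples, with overlapping groups. The lower signal of 1438640_x_at also depended on scaling, since its log2 difference was 0.057 after quantile normalization.

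Pkm (chromosome 9, 59656576 to 59679372), the muscle and proliferating-cell pyruvate kinase, read 1172 and 1022 in DSS samples and 619 and 961 in untreated samples on its only probe set. The groups were separate by a small margin, with a log2 difference of 0.49 ± 0.42 (limma adjusted p = 0.747). Which splice form of Pkm was present was not tested. Ldha (chromosome 7, 46842274 to 46855627), the lactate dehydrogenase subunit that favours lactate formation, read 9831 and 12830 in DSS samples and 9017 and 5500 in untreated samples. The lower DSS array and the higher untreated array were close, and the log2 difference was 0.67 ± 0.41 (limma adjusted p = 0.688).

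Across the 25 probe sets, 11 were higher and 3 lower in DSS samples without overlap of the groups, and 11 overlapped. Among all 45101 probe sets 13.6% were higher and 25.4% lower in this way. Limma called 0 of the 25 and 0% of all probe sets, and 5 of the 25 had an unadjusted p under 0.05, against 6.3% of all. Of the 25, 23 passed the filter on low signals. The 17 probe sets of other endings, from 9 genes, included 10 higher and 1 lower, with a median log2 difference of 0.61, whereas the 8 ending in _x_at, from Aldoa, Hk3 and Pgk1, included 1 higher and 2 lower, with a median of -0.33. This division was made after the values were seen and was not tested. Over the whole array 13.4% of probe sets with other endings were higher and 25.6% lower, and 15.3% of those ending in _x_at or _s_at were higher and 23.1% lower. A further probe set, not counted among the 25, names Hk1 among 6 gene symbols and was not used.

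**Figure D3:**
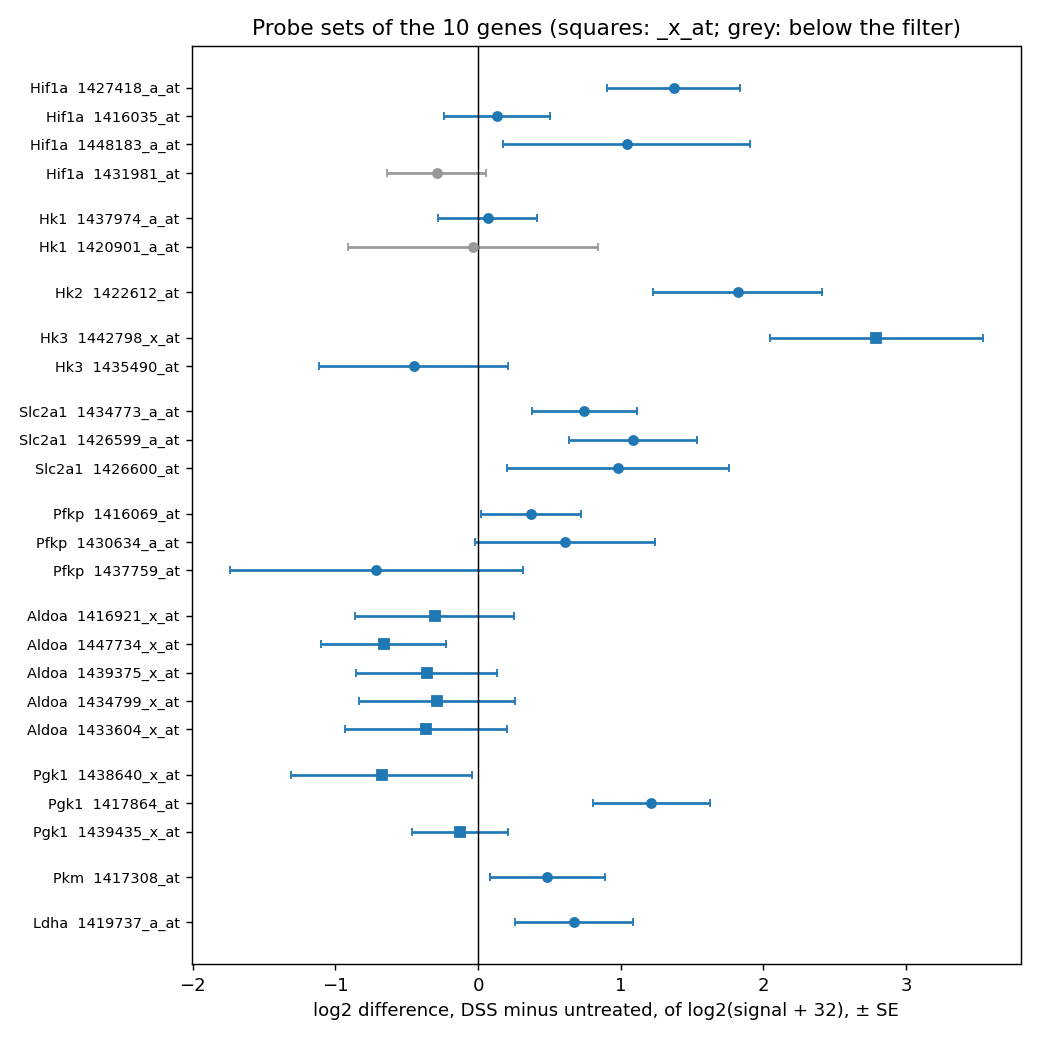
Log2 difference, DSS minus untreated, of each of the 25 probe sets with its standard error from the limma fit over all 45101 probe sets (n = 2 per group). Circles are probe sets with other endings, squares end in _x_at, and grey marks the 2 that did not pass the filter on low signals. All 5 Aldoa squares lie below 0, and the Pgk1 circle at 1.22 lies apart from both Pgk1 squares.

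A difference between related genes on the same array removes any shift common to the whole array, and 7 such pairs were compared on the brightest probe set of each gene. The log2 gap of Hk2 over Hk1 was -2.74 and -2.57 in DSS samples and -3.92 and -4.89 in untreated samples, 1.75 higher in DSS samples. That of Hk3 over Hk1 was higher by 2.72 and that of Slc2a1 over Slc2a3 by 0.67, and that of Hif1a over its partner Arnt was higher by 2.06, all without overlap of the groups. Pfkp over Pfkl (0.66), Ldha over Ldhb (0.70) and Hk2 over Hk3 (-0.97) overlapped between groups. The gaps rest on the probe sets chosen. Hk3 gave a log2 difference of -0.45 on 1435490_at and Hif1a 0.13 on 1416035_at, and the probe sets of Arnt ran from -0.82 to 1.51. The sizes also depended on the untreated array. Without untreated replicate 1 the gap was higher in DSS samples by 2.23 for Hk2 over Hk1, 1.73 for Hk3 over Hk1, 0.35 for Slc2a1 over Slc2a3 and 3.02 for Hif1a over Arnt. Without untreated replicate 2 these values were 1.27, 3.72, 0.99 and 1.11. The gap of Hk2 over Hk3 changed sign, at 0.51 without untreated replicate 1 and -2.45 without untreated replicate 2, and those of Pfkp over Pfkl and Ldha over Ldhb were 0.0093 and 0.084 without untreated replicate 2. With 2 arrays in each group a two-sided exact permutation test cannot give a p below 0.333, the value for each pair without overlap, and the adjusted p over the 7 pairs was 0.583. These gaps show unequal change between 2 probe sets and say nothing of their relative levels.

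The other glycolysis genes showed no common direction. Of 15 tested, 2 were higher and 3 lower without overlap, near the 17.2% and 23.8% of all genes. In 10 the groups overlapped, limma called 0 of the 15, and their median log2 difference was -0.03. Tpi1, triose phosphate isomerase, was higher, at 3349 and 4038 in DSS samples and 2551 and 2989 in untreated samples, and lay higher without overlap on its probe sets 1435659_a_at, 1452927_x_at and 1415918_a_at. Hkdc1, a hexokinase-like gene, was also higher, at 164 and 177 in DSS samples and 43.1 and 29.2 in untreated samples, but its other probe set gave -2.24. The lower ones were Pfkfb3, which makes the activator of phosphofructokinase (132 and 158 in DSS samples, 284 and 437 in untreated samples), Bpgm, a mutase of the red cell shunt (636 and 680 in DSS samples, 1129 and 925 in untreated samples), and Gapdhs, the sperm form of Gapdh (213 and 234 in DSS samples, 434 and 1070 in untreated samples). The other probe set of Pfkfb3 overlapped between groups at a log2 difference of 0.35, and the other probe sets of Bpgm overlapped at 0.07 and 0.89, so neither gene was lower on all its probe sets. Pgam1, the mutase of the main pathway, read 2058 and 2203 in DSS samples and 1783 and 2067 in untreated samples, with overlapping groups. Pfkfb3, Hkdc1 and Gapdhs are dim here, and dim genes had a negative median as a class. Hkdc1 passed the filter only on the DSS arrays and Pfkfb3 only on the untreated arrays, so the direction of each was tied to the filter.

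**Figure D4:**
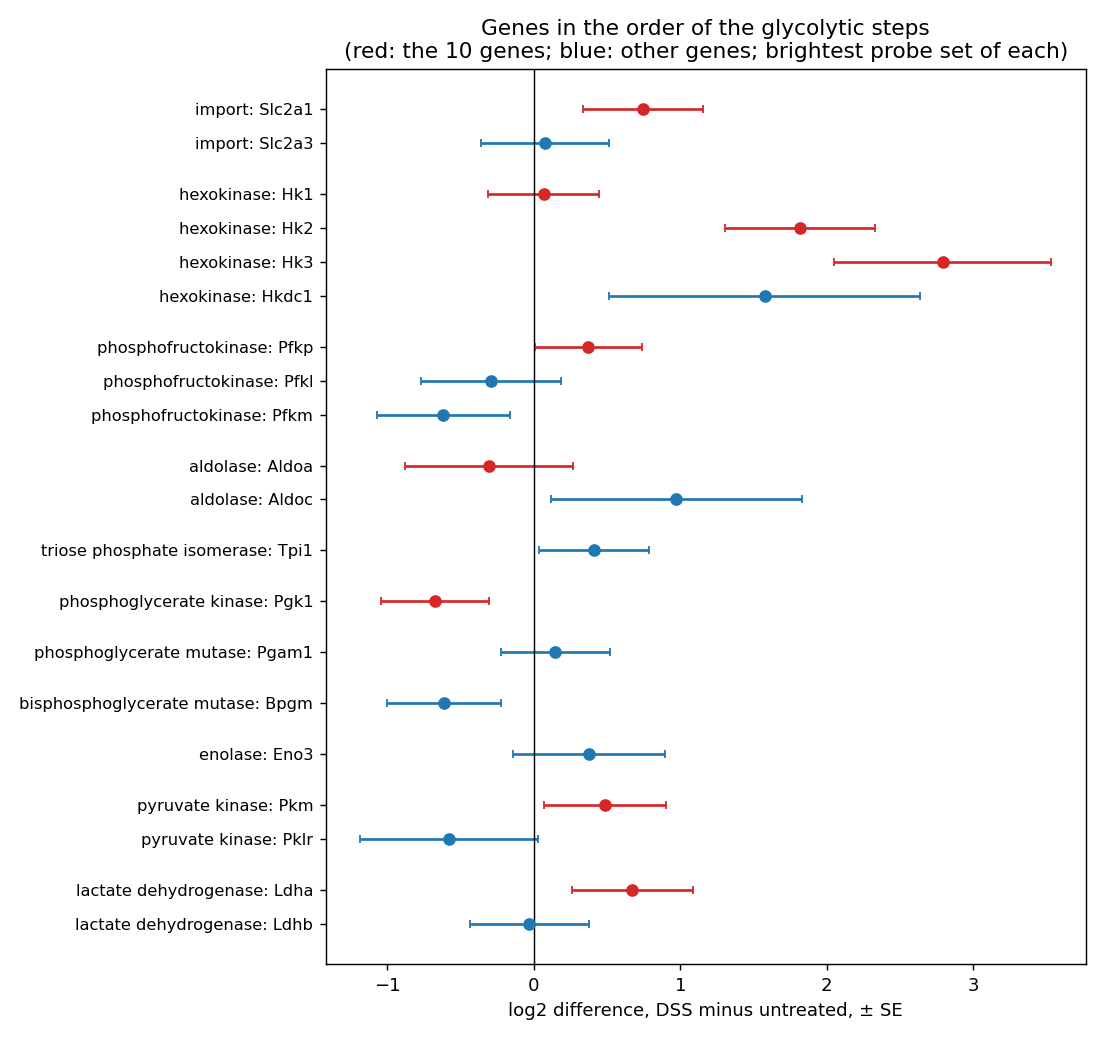
Log2 difference, DSS minus untreated, with its standard error (limma, n = 2 per group) for genes in the order of the glycolytic steps, on the brightest probe set of each; red marks the 10 genes and blue other genes. At the hexokinase step Hk1 lies at 0.07 while Hk2 and Hk3 lie at 1.82 and 2.79, and Pfkl and Pfkm lie below 0 beside Pfkp at 0.37.

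Genes around the pathway were counted in the same way, against 17.2% higher and 23.8% lower of all genes, and limma called 0 in each list. At an unadjusted limma p under 0.05, which 7.52% of all genes had, there were 2 genes of pyruvate entry, 1 each among the other glycolysis genes, the transporters and the HIF regulators, and 0 in the pentose phosphate and HIF-induced lists. Of 12 sugar and lactate transporter genes on the array, 7 passed the filter on low signals. The lactate transporters themselves did not pass and were not tested. Of the 7 tested, 2 were higher without overlap and 0 lower. These were Emb, embigin, and Bsg, basigin, the partner proteins that carry lactate transporters to the cell surface. Emb read 4880 and 5732 in DSS samples and 2134 and 2875 in untreated samples, and Bsg read 676 and 637 in DSS samples and 109 and 531 in untreated samples. The other probe sets of Emb overlapped between groups at 0.43 and 0.40. Of 12 genes of pyruvate entry to mitochondria, 4 were higher and 3 lower. Mpc1, a subunit of the mitochondrial pyruvate carrier, read 836 and 917 in DSS samples and 401 and 313 in untreated samples, while Pdk2, a kinase that holds back pyruvate dehydrogenase, read 85.6 and 120 in DSS samples and 324 and 415 in untreated samples. Pdk2 passed the filter only on the untreated arrays. In the pentose phosphate pathway 3 of 6 genes were higher and 1 lower, led by transketolase Tkt at 30970 and 40280 in DSS samples and 22647 and 20335 in untreated samples.

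HIF-1 partners and regulators were divided, with 3 of 17 tested genes higher, 3 lower and a median log2 difference of 0.18. Rheb, the small GTPase that activates mTOR complex 1, read 9671 and 11622 in DSS samples and 5739 and 1563 in untreated samples. Arnt, the partner of Hif1a, read 660 and 304 in DSS samples and 604 and 922 in untreated samples on its brightest probe set, with overlapping groups. Its other probe sets went both ways, from -0.82 on 1449696_at to 1.51 on 1419996_s_at, each without overlap. Among 15 tested HIF-induced genes outside glycolysis, 5 were higher and 0 lower without overlap, against 17.2% and 23.8% of all genes. These counts are of brightest probe sets, and on dimmer kept probe sets some genes were lower without overlap and others higher. The median log2 difference of the list was 0.32. Scaling to a common median moved it to 0.66 and the median of all genes from -0.07 to 0.25. Bhlhe40, a HIF-induced transcriptional repressor, read 2185 and 1982 in DSS samples and 1474 and 731 in untreated samples. Car9, a carbonic anhydrase that is a standard hypoxia marker, overlapped at 330 and 544 in DSS samples and 284 and 637 in untreated samples.

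The genes whose pattern over the 4 arrays lay closest to that of Hif1a were Slc10a7, Psma1, Anxa5, Prim2 and Rnf2, at root mean square distances of 0.04 to 0.08 log2 after each gene was centred on its own mean. They were picked for this closeness on these same arrays, so sharing the order of Hif1a was no separate result. In that order both DSS arrays were high, untreated replicate 1 lower and untreated replicate 2 lowest. Psma1, a proteasome subunit, read 4860 and 5825 in DSS samples and 3198 and 1286 in untreated samples. Among the other glycolysis genes of the 10, Hk2 was the closest to Hif1a at 0.34, ranked 383 of 12423 genes, and Hk3 the farthest at 1.46. With 4 arrays many genes can share such an order.

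The sorted cells carried T cell transcripts in both groups. Each marker list was counted in the same way, against 17.2% of all genes higher and 23.8% lower without overlap. Of 10 tested T cell markers 2 were higher, 5 lower and 3 overlapped, with a median log2 difference of -0.35. Their signals summed to 145083 and 137842 in DSS samples and 210454 and 247041 in untreated samples. The largest part of each sum was Itgae on its brightest probe set, whose other probe set went the other way. The higher genes were Cd3g and Cd3d, and Cd8b1 and Itgae were among the lower. Cd3g, a CD3 chain of the T cell receptor complex, read 17026 and 13219 in DSS samples and 10949 and 12540 in untreated samples, and Cd3d, another such chain, read 7419 and 9094 in DSS samples and 3898 and 6791 in untreated samples. Cd8b1, a chain of the CD8 coreceptor, gave 137 and 98.6 in DSS samples and 722 and 727 in untreated samples, and passed the filter only on the untreated arrays. Itgae, the CD103 integrin, had probe sets in opposite directions: the brightest, 1447541_s_at, read 43558 and 43518 in DSS samples and 101512 and 98460 in untreated samples, while 1449216_at read 17058 and 11479 in DSS samples and 9780 and 9720 in untreated samples, a log2 difference of 0.52. Transcripts of the gamma delta receptor constant chain Trdc were not analysed here. Most of the tested macrophage and dendritic cell markers were higher in the same DSS samples. Of 19 on the array 15 passed the filter, some of them only on the DSS arrays, and 13 were higher and 1 lower without overlap. The lower one was Zbtb46, at 242.5 and 61.0 in DSS samples and 461 and 243.1 in untreated samples, and Itgax overlapped at -0.13. Signals of the 15 summed to 67291 and 93053 in DSS samples and 12568 and 6377 in untreated samples. On the untreated arrays some of them read under the array median. Csf1r, a growth factor receptor of macrophages, read 33267 and 40991 in DSS samples and 4342 and 1162 in untreated samples. The part of the T cell and macrophage markers in the values of Hk3, Hk2, Hif1a and the other glycolysis genes was not tested, and in a bulk sample fewer cells of a type and less RNA per cell cannot be told apart. Of 8 neutrophil markers 1 was higher and 2 were lower, with summed signals of 7090 and 9318 in DSS samples and 2338 and 2120 in untreated samples, the one higher gene being Il1b, which macrophages also make. Without Il1b, at 5862 and 7134 in DSS samples and 365 and 354 in untreated samples, the other 7 summed to 1228 and 2184 in DSS samples and 1973 and 1767 in untreated samples. Epithelial markers, 3 higher and 2 lower of 13 tested, summed to 17155 and 14792 in DSS samples and 15535 and 10852 in untreated samples. The neutrophil and epithelial counts lay near the shares of all genes. The other marker lists had few tested genes. B and plasma cell markers had 1 higher of 5, and fibroblast and endothelial markers (4 tested) and erythroid markers (2 tested) had 0 in either direction.

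Each gene's difference was recomputed under other scalings, pseudocounts, filters, probe set choices and variance models, with the replicate block and with each array left out. Of these 138 values 121 kept both their sign and their place above the threshold of adjusted p, 7 passed the test and 10 changed sign. The sign changes fell on Hk1, Hk3, Aldoa and Pgk1, whereas Hif1a, Hk2, Slc2a1, Pfkp, Pkm and Ldha stayed higher in DSS samples in each setting that gave them a value (14 settings, and 13 for Hk2). Part of this constancy was fixed in advance. On its brightest probe set each of the genes that stayed higher had both DSS arrays above both untreated arrays. Leaving out any single array or changing the pseudocount could therefore not change its sign. The variance model and the replicate block cannot change a log2 difference, and dropping the filter changed none of the 10. Hk2, Pkm and Ldha each had only 1 probe set, so probe set choices could not alter their values. Hif1a was read on its brightest probe set except where kept probe sets were averaged (0.85). Its dimmer probe set with a log2 difference of 0.13 was never used alone. The range over settings was 1.40 to 2.16 for Hk2, 0.47 to 1.09 for Slc2a1, 0.32 to 1.03 for Ldha and 0.18 to 0.82 for Pkm.

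**Figure D5:**
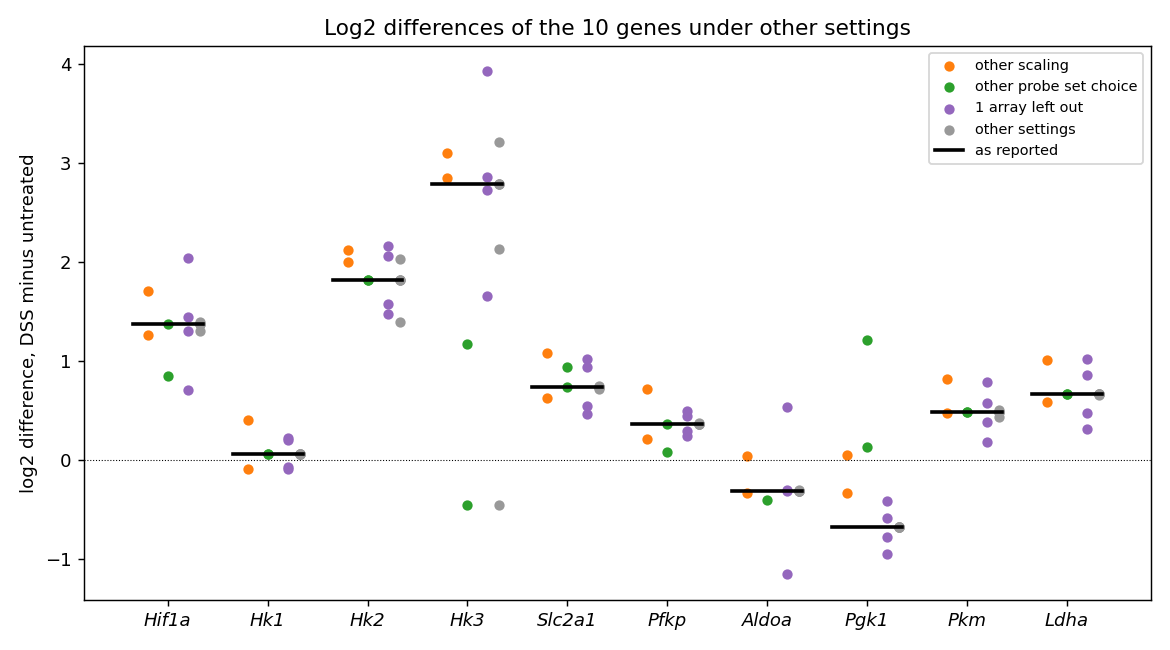
Log2 difference, DSS minus untreated, of each of the 10 genes as reported (black bars) and under other scalings, probe set choices, with 1 array left out and under the remaining settings (points). Points for Hk1, Hk3, Aldoa and Pgk1 lie on both sides of 0.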

How the data were processed

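Signals of 45101 probe sets were deposited for 2 DSS and 2 untreated samples as linear intensities. The submitters' processing notes name GCOS, with a version and settings not given in the sources used here. Intensities as deposited had a trimmed mean of 500.0 on each array. A platform table named 1 gene for 34958 probe sets, several for 932 and none for 9211; control probe sets were not used as genes. The groups were compared with R 4.3.3 and limma 3.58.1 (lmFit, eBayes with an intensity trend, Benjamini-Hochberg over all genes or all probe sets), on log2(signal + 32) with no further normalization. The limma step was checked on simulated data only for whether it returned added differences at their right mean size. No requirement was set on how many of them, or how many other genes, were called. The 10 genes, the lists, tests and settings were chosen with earlier results of these data known. Genes named were the 10 with all their probe sets, any other glycolysis gene tested, up to 2 per direction with the smallest limma p in each further list, and the 5 nearest to Hif1a; Slc2a3 was named as one of the compared pairs. Same-numbered arrays deviated from their group means with r = 0.052 over 12424 genes, so the numbers were not taken as pairs. The number of arrays limits the precision. Promoter sequences are from RefSeq (GRCm38.p6), matched by symbol for 10 of 10 genes.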

Additional observations from a re-analysis of the deposited data

How the results depend on the processing

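Signs that changed were those of Hk1 (-0.090 after quantile normalization, -0.089 to 0.23 with single arrays left out), Hk3 (-0.45 with signals above the median on all 4 arrays and with _x_at and _s_at probe sets left out), Aldoa (0.040 with a common median, -1.15 to 0.54 with single arrays left out) and Pgk1 (0.057 after quantile normalization, 0.14 with kept probe sets averaged, 1.22 with _x_at and _s_at left out). Limma called 1 gene with the filter on all 4 arrays, 3 with probe sets averaged, 0 to 1791 when single arrays were left out, and 67 genes and 64 probe sets with the replicate number as a block, Hk3 being the 1 among the 10 genes (adjusted p = 0.0188); the block changed no other call of the 10. With arrays left out it called 0 to 849 probe sets and 0 to 5 of the 10. The count of the 10 genes lower without overlap was 0 after quantile normalization, with a common median, with probe sets averaged and with _x_at and _s_at left out, and 1 to 2 with arrays left out. Scaling to a common median moved the median of all genes to 0.25 and that of the 10 to 0.92; relative to all genes, the median of the 10 was 0.65 as deposited, 0.52 after quantile normalization and 0.66 with a common median. With the filter on all 4 arrays, which removed Hk2, the median of the remaining 9 was 0.37. The cause of these changes was not tested. Medians of the lists around the pathway were moved by a common median in 5 cases, to 0.30 for other glycolysis enzymes and 0.66 for HIF-induced genes. Untreated signals near or under the array median limit the folds of Hk2 and Hk3.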
